A study of Rattus norvegicus with 63 samples.

Results

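Dimethylnitrosamine (DMN) is a nitrosamine that liver enzymes turn into a compound that methylates DNA, and it serves as a genotoxic carcinogen of rat liver. The data described here are the liver microRNA (miRNA) arrays of 3 rats given DMN and of the 3 vehicle rats the labels assign to them, chosen by their sample labels. They make up 6 of the 63 single-colour arrays of a study of 15 compounds and 6 sets of vehicle controls, with 1 array per rat. All rats were males of the Wistar Hanover stock named Crl:WI[Gl/BRL/Han]IGS BR, aged 8 to 10 weeks and treated by oral gavage. The DMN rats received 4 mg/kg/d in corn oil for 7 days, and their controls, corn oil (CO) control set 3 with the replicate numbers 4 to 6, received corn oil alone for 7 days. C.I. Direct Black (CIDB), given at 146 mg/kg/d in corn oil for 7 days and classed as a genotoxic carcinogen as well, shares these controls and is used for comparison, as are the 3 methylcellulose (MC) rats of control set 6, treated for 14 days, and the 3 corn oil rats of control set 4, also treated for 14 days. As limits of the groups as a model, the doses were those known to cause tumours in long-term studies, and the 3 rats of a compound's group were picked out of 5 because their livers showed changes under the microscope. The labels name each rat as a sample of its own, and the spread behind each p-value is that between rats.

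miRNAs are short RNAs that guide a silencing complex to messenger RNAs, mainly through their seed, the bases 2 to 8 from the 5′ end, so that miRNAs with the same seed can bind the same target sites. In liver, miR-122 is the dominant hepatocyte miRNA, miR-192 and miR-194 are also abundant in hepatocytes, miR-223 and miR-142 are made by blood-derived cells, miR-126 by endothelium, and miR-143 and miR-199a by mesenchymal cells such as stellate cells and smooth muscle. The miR-34 genes are direct transcriptional targets of p53, the factor that is stabilised when DNA is damaged.

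The mature sequences on which the comparison turns are shown 5′ to 3′ with the seed in capitals, as listed by RefSeq for the GRCr8 rat assembly, and 32 of 32 array names looked up were found there. The array uses older names without an arm for most of them, which were read as the arm that this older nomenclature writes without an asterisk. The first set is the miR-34 family, whose 3 members share the seed:
miR-34a-5p: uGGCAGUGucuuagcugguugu
miR-34b-5p: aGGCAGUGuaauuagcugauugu
miR-34c-5p: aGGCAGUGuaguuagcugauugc
The miR-34a sequence lies at chr5:165815971-165815992 on the plus strand, inside a long non-coding RNA gene (LOC103692514). miR-34b at chr8:60306657-60306679 and miR-34c at chr8:60306133-60306155 on the minus strand are 501 bases apart, within the span of the gene Hoatz.

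The second set holds the miRNAs of white blood cells and of inflammatory signalling, of which both arms of the miR-142 hairpin were measured and miR-146a and miR-146b share their seed:
miR-142-3p: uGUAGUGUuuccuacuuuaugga
miR-142-5p: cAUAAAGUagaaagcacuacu
miR-223-3p: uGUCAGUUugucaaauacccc
miR-146a-5p: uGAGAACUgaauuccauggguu
miR-146b-5p: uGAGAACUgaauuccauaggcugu
The miR-142 arms lie at chr10:73055119-73055139 (5p) and chr10:73055155-73055177 (3p), within the span of Tspoap1. miR-223 lies at chrX:65151450-65151470, and miR-146a and miR-146b lie on chromosomes 10 and 1.

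The third set shows miRNAs with the same seed from separate genome clusters, of which miR-15b, miR-16 and miR-27a were called higher and miR-195, miR-497, miR-23b and miR-27b lower in the DMN rats, and miR-23a was not called:
miR-15b-5p: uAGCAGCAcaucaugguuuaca
miR-16-5p: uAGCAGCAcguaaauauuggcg
miR-195-5p: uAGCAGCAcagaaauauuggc
miR-497-5p: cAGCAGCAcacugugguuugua
miR-23a-3p: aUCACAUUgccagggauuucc
miR-23b-3p: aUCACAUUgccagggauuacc
miR-27a-3p: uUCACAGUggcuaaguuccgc
miR-27b-3p: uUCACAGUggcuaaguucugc
miR-15b and miR-16 are 124 bases apart on chromosome 2 within the span of Smc4, a condensin gene, and miR-497 and miR-195 are 315 bases apart on chromosome 10. miR-23b and miR-27b are 221 bases apart on chromosome 17 within the span of Aopep, and miR-23a and miR-27a are 143 bases apart on chromosome 19. Compared base by base from the 5′ end, miR-23a and miR-23b differ at 1 of 21 bases, miR-27a and miR-27b at 1 of 21, and miR-16 and miR-195 at 2 of 21. Whether the array's probes tell such near-identical forms apart was not tested.

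Levels are given as log2 brightness after quantile normalization between arrays, without background subtraction. In scanner units the median brightness of the DMN arrays was 200, 210 and 214, against 193, 203 and 207.75 for the negative control spots, and that of the controls was 199, 202 and 193.5, against 192, 196 and 186.5. The background thus fills the lower end of the log2 scale, so that a difference in a dim miRNA is given as smaller than the difference in its own signal, and the number of arrays limits the precision. The array covers 350 rat miRNAs, of which these 6 arrays detected 108 at least once and 79 throughout. The DMN arrays had 91, 105 and 96 detected miRNAs and the control arrays 96, 90 and 81. No spot was saturated. miR-122 was the brightest miRNA on each of the 6 arrays, and 0 of 11 markers of muscle, pancreas and brain were detected on any of them.

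All 3 DMN arrays were on one slide and all 3 control arrays on another, both scanned on the same day, so that slide and treatment cannot be told apart in this comparison. The rats of MC control set 6 shared the slide of the DMN rats. Between them and CO control set 3, limma over all 63 arrays called 0 of 162 miRNAs, with 4 at an unadjusted p under 0.05 and a smallest adjusted p of 0.387, and no other scaling or filter of that comparison made a call. CO control set 4 against set 3 also gave 0 calls, with 11 at an unadjusted p under 0.05.

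In the DMN livers, miR-34a rose most, 6 of 8 tested miRNAs of white blood cells were called higher, and the seed families of miR-15 and of miR-27 held members called higher and members called lower, though with slide as a fixed block, where the standard errors were larger, no member of either was called. Of 162 miRNAs tested, 38 were called at an adjusted p under 0.05 (limma with Benjamini-Hochberg adjustment), or 23.5%, with 22 higher (13.6%) and 16 lower (9.88%) in DMN rats, and 54 had an unadjusted p under 0.05. The median log2 fold change over all tested miRNAs was -0.0044. In 34 of the 38 the 3 DMN rats did not overlap the 3 controls, against 28.4% of all miRNAs tested. Among the called miRNAs, which were chosen from these same rats, DMN rat 1 lay closest to the control mean, with a median absolute difference of 0.12 against 0.19 and 0.18 for rats 2 and 3. Of the probes of these miRNAs, 76 of 78 moved in the called direction, the exceptions being 1 probe each of miR-34c and miR-7a*. Each miRNA value is made from these same probes, so this count is no separate support for the calls.

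**Figure D1:**
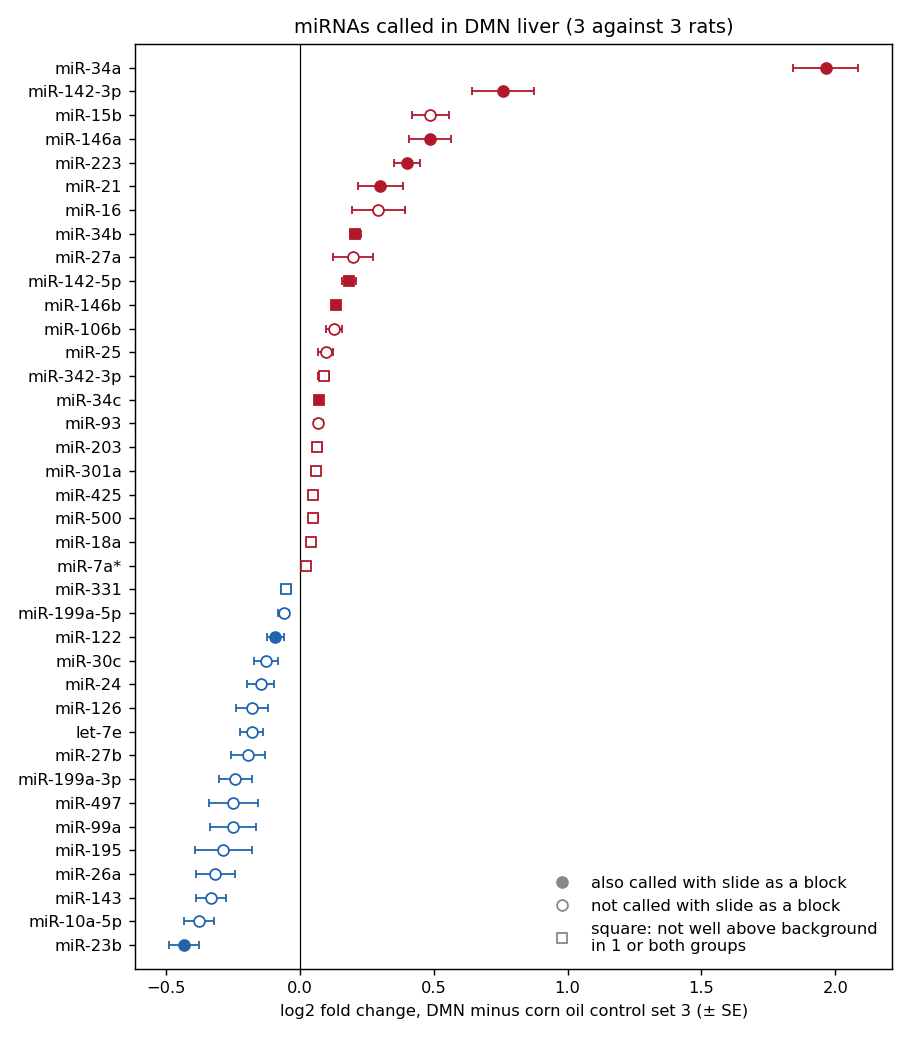
Log2 fold change (x axis, DMN minus CO control set 3, with the standard error of the limma fit as bars) of the 38 called miRNAs, with red for higher and blue for lower. Filled symbols are the 11 miRNAs also called with slide as a fixed block, a fit that takes the slide difference from CIDB rats 1 and 3 alone. Squares are miRNAs that were not well above background on any array of 1 or both groups, whose plotted difference is not a fold of their own signal.

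Other settings moved the size of this list more than its direction. With slide as a fixed block, 9 miRNAs were called higher and 2 lower, the 9 being miR-34a, miR-34b, miR-34c, miR-142-3p, miR-142-5p, miR-146a, miR-146b, miR-223 and miR-21, and the 2 being miR-23b and miR-122. Only the CIDB group had rats on both the DMN slide and the control slide. This fit therefore takes the slide difference from CIDB rat 1 and CIDB rat 3 alone, and cannot tell it from a difference between these rats. Against MC control set 6 on the same slide, 25 were called higher and 20 lower (27.8% of 162), 33 of the 38 among them in the same direction. The split between higher and lower depended on the scaling: 57.9% of calls were higher as reported, 80.6% with the processed signal scaled to the 75th percentile of the detected probes (29 higher, 7 lower), 44.4% with that of all probes (12 higher, 15 lower) and all 4 calls with median scaling. Leaving out DMN rat 2 left 14 higher and 8 lower, and leaving out DMN rat 3 left 10 lower.

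All 3 members of the miR-34 family were called higher. The log2 brightness of miR-34a was 9.93, 9.65 and 9.96 in DMN rats 1 to 3 and 8.03, 7.85 and 7.77 in control rats 4 to 6. All DMN rats lay far above all controls, and the same-slide MC rats, at 7.86, 7.78 and 7.83, lay in the range of the corn oil controls. The log2 fold change was 1.96 ± 0.12 (SE, n = 3 rats per group), or 3.9-fold, with a limma adjusted p of 7.79e-18. It was called under each of the 14 other settings and without any 1 of the 6 rats.

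miR-34b was much dimmer, at 7.804, 7.608 and 7.669 in DMN rats and 7.501, 7.503 and 7.458 in controls. It was well above background in 1 DMN rat and in no control, so its rise, which the limma fit called with an adjusted p of 6.53e-11, is at least 1.08-fold, where the bound sets the dim group at the lowest brightness of a miRNA well above background on each array. miR-34c, at 7.569, 7.504 and 7.516 against 7.457, 7.450 and 7.468, was not well above background on any of the 6 arrays, and no fold is given for its call (limma adjusted p = 8.41e-05). In both, every DMN rat lay above every control, and DMN rat 1 was the highest. On the 6 arrays alone miR-34b and miR-34c were not called (limma adjusted p = 0.0689 and 0.0959), and neither was miR-34c with median scaling.

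Beside miR-34a, b and c, the list of miRNAs linked to p53 and the DNA damage response held 6 further tested members. Of its 9 tested members 4 were called higher, with miR-16 as the fourth, 1 lower and 4 not, against 13.6% higher and 9.88% lower of all tested, with a median log2 fold change of 0.055 against -0.0044 over all tested. The member called lower was miR-143, whose maturation p53 is known to promote and which is otherwise known from smooth muscle. With slide as a fixed block the calls of miR-16 and miR-143 were lost, and for miR-16 the DMN rats overlapped the controls.

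Of 8 tested members of the leukocyte list, miRNAs of white blood cells and inflammatory signalling, 6 were called higher and none lower, against 13.6% higher of all tested, with a median of 0.16, and 3 of the 8 were well above background on all 6 arrays. Of these 6 calls, those of miR-146a, miR-146b and miR-342-3p were lost on the 6 arrays alone, those of both miR-142 arms, miR-146a and miR-342-3p with median scaling, and that of miR-342-3p with slide as a fixed block. miR-142-3p, a miRNA restricted to blood-derived cells, read 8.86, 9.32 and 9.17 in DMN rats and 8.42, 8.23 and 8.43 in controls. The lowest DMN rat, rat 1, was still above the highest control. Its log2 fold change was 0.76 ± 0.12 (1.69-fold, limma adjusted p = 1.01e-06).

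The other arm of the hairpin, miR-142-5p, read 7.746, 7.858 and 7.797 against 7.645, 7.621 and 7.588. It was well above background in 2 DMN rats and no control and rose at least 1.12-fold (limma adjusted p = 3.89e-07). miR-223, a miRNA of neutrophils and macrophages, read 8.17, 8.31 and 8.35 against 7.88, 7.82 and 7.93, with no overlap of the groups. The difference was 0.40 ± 0.05 (limma adjusted p = 1.78e-08).

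miR-146a, which NF-κB induces and which damps Toll-like receptor signalling, read 8.43, 9.02 and 8.73 in DMN rats and 8.29, 8.15 and 8.29 in controls. DMN rat 1 was again the lowest of the treated rats and close to the controls. The log2 fold change was 0.49 ± 0.08 (limma adjusted p = 2.82e-06). miR-146b was called as well (limma adjusted p = 5.08e-09) at 7.519, 7.625 and 7.633 against 7.450, 7.461 and 7.463, but it was not well above background on any of the 6 arrays. miR-342-3p, known from lymphocytes, was called at 7.498, 7.609 and 7.588 against 7.472, 7.496 and 7.462, well above background in 1 DMN rat only. miR-150, a miRNA of mature B and T lymphocytes, was not called (7.511, 7.591 and 7.606 against 7.620, 7.538 and 7.539, limma adjusted p = 0.96), and neither was miR-181a, the remaining member. miR-181a was called higher in the authors' value table (0.32, limma adjusted p = 0.0401) and with the processed signal scaled to detected probes (0.69, limma adjusted p = 0.00188). With slide as a fixed block it was not called (limma adjusted p = 0.157).

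The samples were pieces of liver, so a change in the number of cells of a type cannot be told apart from a change in the RNA of each cell. On the scanner's background-subtracted signal, the summed level of 4 leukocyte markers (miR-223, both arms of miR-142 and miR-150, each relative to the 75th percentile of the array's detected probes) was 1.01, 1.32 and 1.24 in DMN rats and 0.457, 0.365 and 0.522 in controls. The DMN mean was 2.66 times the control mean, with miR-142-3p as the brightest marker, and all 4 were detected on at least 1 array, while miR-155 was not analysed here. The sums of the other marker sets were 0.948 times the control mean for hepatocytes, 0.951 for red blood cells, 0.707 for stellate and smooth muscle cells, 0.923 for endothelium and 0.956 for bile duct epithelium. In the stellate and smooth muscle set miR-145 and miR-214 were not detected on any of the 6 arrays, and in the bile duct set miR-429 was not. The part of these cell types in the other changes was not tested.

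**Figure D2:**
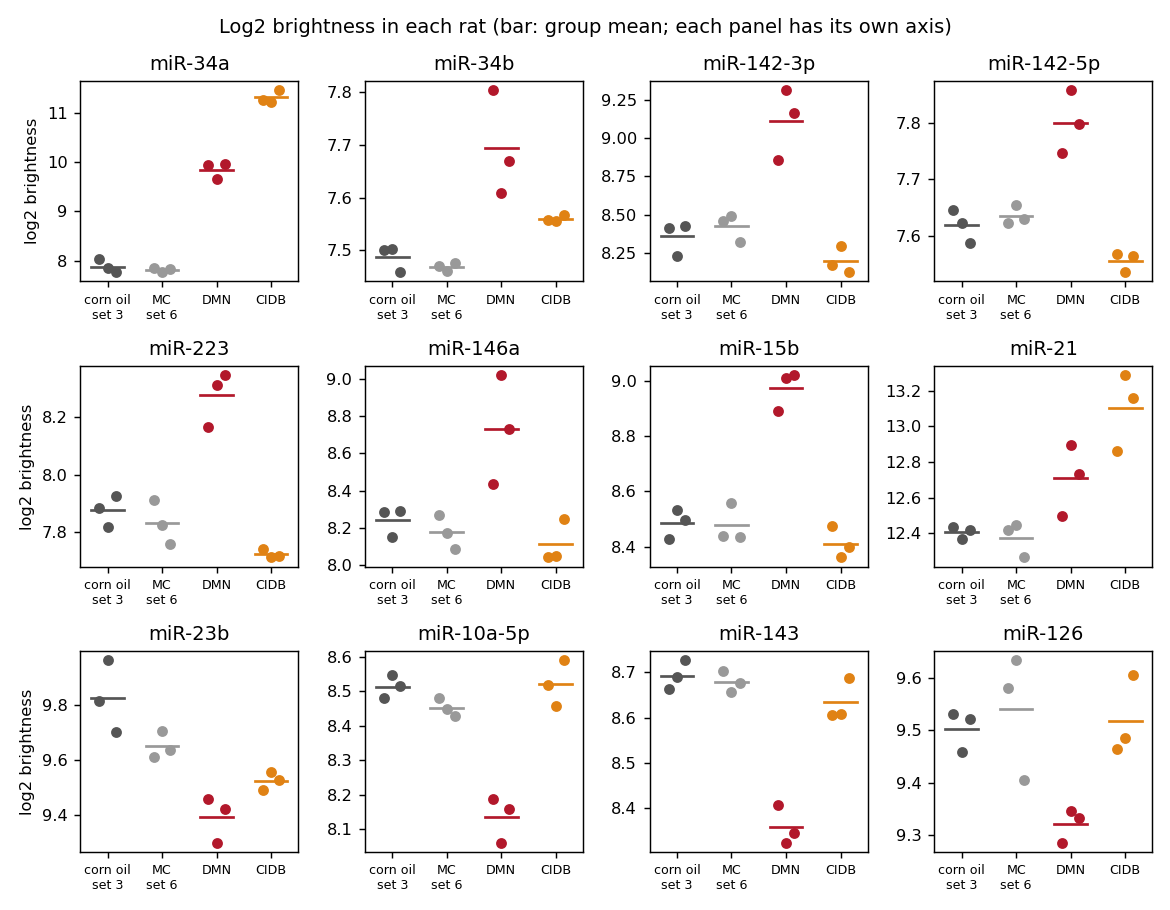
Log2 brightness (y axis, each panel with its own range) of 12 miRNAs in each rat of CO control set 3, MC control set 6, DMN and CIDB, with the group mean as a bar. The DMN rats lie above both control sets for miR-34a, miR-34b, both arms of miR-142, miR-223, miR-146a, miR-15b and miR-21, and below both for the 4 in the bottom row.

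Of the miR-15 seed family, which restrains cyclins and BCL2, the members of different clusters moved in opposite directions. miR-15b read 8.89, 9.01 and 9.02 in DMN rats and 8.43, 8.53 and 8.50 in controls, with a log2 fold change of 0.49 ± 0.07 (limma adjusted p = 2.00e-07). All DMN rats lay above all controls. Its neighbour miR-16 read 9.71, 10.16 and 9.88 against 9.47, 9.60 and 9.80, so that DMN rat 1 lay within the range of the controls (0.29 ± 0.10, limma adjusted p = 0.0301). miR-195 read 8.73, 8.54 and 8.58 against 8.97, 8.97 and 8.78, and its neighbour miR-497 8.53, 8.36 and 8.40 against 8.78, 8.69 and 8.56. In both, all DMN rats lay below all controls, though DMN rat 1 came close to control rat 6. The differences were -0.29 ± 0.11 for miR-195 (limma adjusted p = 0.0419) and -0.25 ± 0.09 for miR-497 (limma adjusted p = 0.0388). miR-322, the fifth member tested, differed by -0.0098 and was not called. With slide as a fixed block it differed by 0.18 ± 0.07 and was not called either (limma adjusted p = 0.101). The calls of miR-16, miR-195 and miR-497 were lost when slide was a block, fixed or random, with median scaling, in the model of the 6 arrays alone and without DMN rat 2. They were also lost without control rat 4 or 5, and those of miR-195 and miR-497 without DMN rat 3, with differences over the 6 fits that left out a rat of 0.17 to 0.40 for miR-16, -0.35 to -0.25 for miR-195 and -0.31 to -0.20 for miR-497. The differences with slide as a fixed block were 0.41 ± 0.14 for miR-15b, 0.25 ± 0.20 for miR-16, -0.28 ± 0.19 for miR-195 and -0.18 ± 0.16 for miR-497. miR-15b was called without any 1 rat and lost its call with slide as a fixed block and with median scaling.

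Of the miR-23, miR-24 and miR-27 clusters, miR-27a was called higher and miR-23b, miR-27b and miR-24 lower. miR-23b fell from 9.81, 9.96 and 9.70 in controls to 9.46, 9.30 and 9.42 in DMN rats, by 0.43 ± 0.05 on the log2 scale (limma adjusted p = 1.78e-08), the largest decrease in brightness but not in the value table (-0.57). No DMN rat reached the lowest control, but the same-slide MC rats, at 9.61, 9.70 and 9.63, lay below 2 of the 3 corn oil controls, and against them the difference was -0.26. miR-27b of the same cluster fell by 0.19 ± 0.06 (limma adjusted p = 0.0253), with DMN rat 1 at 8.74 above control rat 6 at 8.72. miR-27a rose by 0.20 ± 0.07 (limma adjusted p = 0.0456) from 8.40, 8.33 and 8.42 to 8.46, 8.68 and 8.61, a call that of the 6 fits without a rat only the one without DMN rat 1 kept (0.15 to 0.26). The call of miR-27b was lost without control rat 5, DMN rat 2 or DMN rat 3 (-0.25 to -0.12). Neither miR-27 was called with slide as a fixed block (0.25 ± 0.15 for miR-27a and -0.18 ± 0.13 for miR-27b, limma adjusted p = 0.446 and 0.597), with slide as a random block, with median scaling or on the 6 arrays alone, and miR-27a was not called in the value table. miR-23a was not called (0.055 ± 0.07), and miR-24, which both clusters encode, fell by 0.15 ± 0.05 (limma adjusted p = 0.0317), a call that of the 6 fits without a rat only the one without control rat 4 kept (-0.17 to -0.12) and that was lost with slide as a block.

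The cluster of miR-106b, miR-93 and miR-25, which spans 472 bases inside the DNA replication gene Mcm7 on chromosome 12, had all 3 members called higher, calls that were lost with slide as a fixed block, with median scaling and with the processed signal scaled to all probes:
miR-106b-5p: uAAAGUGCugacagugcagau
miR-93-5p: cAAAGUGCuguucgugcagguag
miR-25-3p: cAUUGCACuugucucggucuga
miR-106b read 8.05, 8.12 and 8.03 in DMN rats and 7.93, 7.93 and 7.95 in controls (0.13 ± 0.03, limma adjusted p = 0.00126). miR-93 rose by 0.069 ± 0.018 (limma adjusted p = 0.00377) and was well above background in 3 DMN rats and 1 control, and miR-25 rose by 0.096 ± 0.029 (limma adjusted p = 0.0140), with the call lost without DMN rat 2 or 3 (0.083 to 0.12), and was 0.045 with slide as a fixed block, against 0.16 for miR-106b and 0.099 for miR-93 in that fit. For all 3, every DMN rat lay above every control. The related cluster of miR-17 to miR-92a was not called except for miR-18a, which was not well above background on any of the 6 arrays. miR-17, which shares the seed of miR-106b and miR-93, was well above background in 1 DMN rat and no control, and in the value table it was called higher (0.36, limma adjusted p = 0.0392). miR-92a, which shares the seed of miR-25, differed by -0.17 ± 0.07 (limma adjusted p = 0.0678). In all, 4 of 9 tested members of both clusters were called higher and none lower, against 13.6% higher of all tested, with a median of 0.026.

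**Figure D3:**
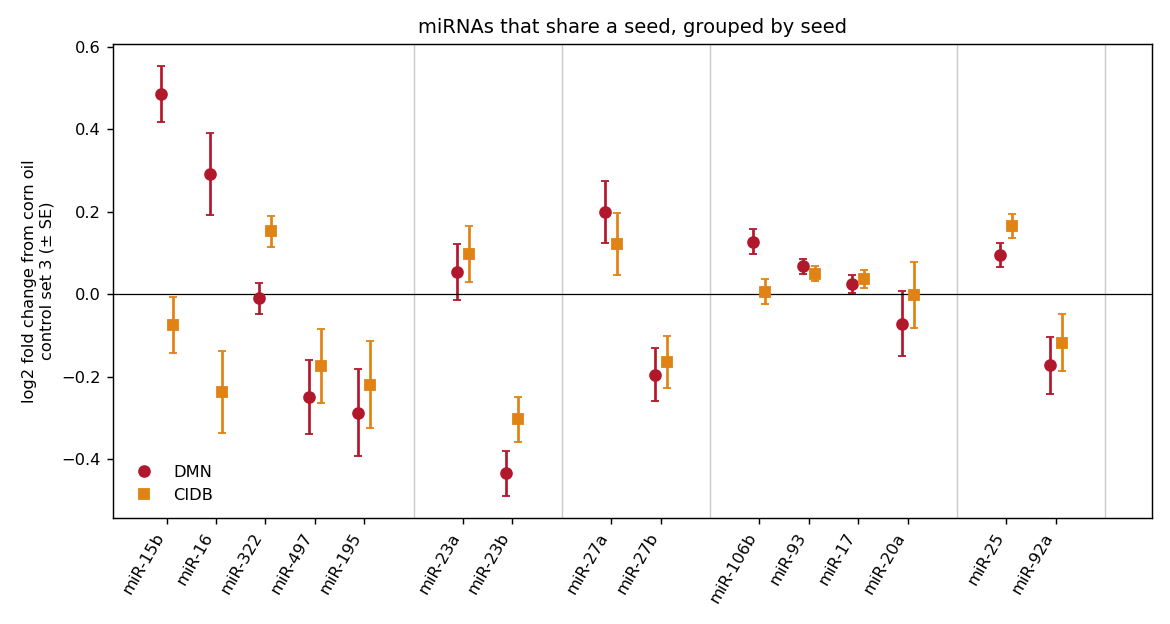
Log2 fold change from CO control set 3 (y axis, with standard errors) of miRNAs grouped by shared seed, with red circles for DMN and orange squares for CIDB, which share these controls. In DMN rats miR-15b and miR-16 lie above 0 and miR-497 and miR-195 below, and miR-27a lies above 0 and miR-27b below.

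Among the miRNAs of mesenchymal cells and endothelium, those called were lower. Of 9 tested members of the stellate and smooth muscle list 4 were called lower and none higher, against 9.88% lower of all tested, with a median of -0.061. None of these 4 was called with slide as a fixed block. miR-143, known from smooth muscle and stellate cells, read 8.41, 8.32 and 8.34 in DMN rats and 8.66, 8.69 and 8.73 in controls. The groups lay apart, and the MC rats at 8.70, 8.66 and 8.68 lay with the corn oil controls. It fell by 0.33 ± 0.06 (limma adjusted p = 5.54e-06).

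miR-199a-3p, a stellate cell miRNA, read 7.88, 7.85 and 7.94 against 7.94, 8.11 and 8.36. The difference of -0.24 ± 0.06 (limma adjusted p = 0.00334) rested on control rat 6, without which it was -0.13 and not called. The opposite arm, miR-199a-5p, was called lower too, though well above background in only 1 DMN rat and 2 controls and called under only 2 of the 14 other settings, and its call was lost without control rat 6, DMN rat 1 or DMN rat 2 (-0.082 to -0.032). miR-99a fell by 0.25 ± 0.09 (limma adjusted p = 0.0326), a call that of the 6 fits without a rat only the one without control rat 5 kept (-0.27 to -0.22). The endothelial miR-126 read 9.29, 9.35 and 9.33 against 9.53, 9.46 and 9.52, a decrease of 0.18 ± 0.06 (limma adjusted p = 0.0253) with no overlap, and was not called with slide as a block, with the processed signal scaled to detected probes, with median scaling or in the value table. With slide as a fixed block it was -0.040. It was also not called without control rat 4, control rat 6 or DMN rat 1 (-0.20 to -0.16). Its opposite arm, miR-126*, was not called and was not well above background on any of the 6 arrays.

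miR-10a-5p, encoded in the Hoxb cluster, had the second largest decrease on the brightness scale and the largest in the value table (-0.94) and in the processed signal scaled to detected probes (-0.73). It read 8.19, 8.06 and 8.16 in DMN rats and 8.48, 8.55 and 8.51 in controls. The DMN rats lay below all controls of either set, the MC rats being at 8.48, 8.45 and 8.43. The difference was -0.38 ± 0.06 (limma adjusted p = 8.79e-07). With slide as a fixed block it was -0.31 ± 0.10 and not called (limma adjusted p = 0.0503), and the call was also lost with median scaling.

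Of 14 tested members of the hepatocyte list 3 were called lower and none higher, against 9.88% lower of all tested, with a median of -0.084, and 12 of the 14 were well above background on all 6 arrays. miR-122 read 14.61, 14.49 and 14.57 in DMN rats and 14.68, 14.67 and 14.59 in controls. DMN rat 1 overlapped the lowest control, and the difference of -0.092 ± 0.032 (limma adjusted p = 0.0329) was not called without control rat 4, control rat 5 or DMN rat 2 (-0.12 to -0.058). It was -0.37 with slide as a fixed block (limma adjusted p = 1.96e-09), -0.14 with slide as a random block, -0.45 with the processed signal scaled to all probes, and -0.22 and not called in the value table. The shift in the fixed-block fit is the difference in miR-122 between CIDB rat 1 at 14.49 and CIDB rat 3 at 14.21. miR-26a, a miRNA of differentiated liver, fell by 0.32 ± 0.07 (limma adjusted p = 0.00116) from 10.09, 10.04 and 9.82 to 9.66, 9.67 and 9.67, with all DMN rats below the lowest control. Its call was lost with slide as a fixed block (-0.31 ± 0.13, limma adjusted p = 0.167), with median scaling and on the 6 arrays alone. miR-30c, of the miR-30 family, fell by 0.13 ± 0.05 (limma adjusted p = 0.0368), a call that of the 6 fits without a rat only the one without control rat 5 kept (-0.14 to -0.11), and differed by -0.016 with slide as a fixed block (limma adjusted p = 0.971). miR-192 (0.035 ± 0.07) and miR-194 (-0.14 ± 0.07), which lie next to each other on chromosome 1, were not called. Of 9 tested members of the let-7 list 1 was called lower, let-7e, against 9.88% lower of all tested. let-7e fell by 0.18 ± 0.04 (limma adjusted p = 0.00116) with no overlap of the groups. Its call was lost with slide as a fixed block (-0.13 ± 0.07, limma adjusted p = 0.371) and with median scaling.

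Of the injury and growth list, 1 of 8 tested members was called higher and none lower, against 13.6% higher of all tested. miR-21, a miRNA of injured and regenerating liver, read 12.50, 12.89 and 12.73 in DMN rats and 12.44, 12.37 and 12.42 in controls. DMN rat 1 lay just above the controls, and the rise of 0.30 ± 0.08 (limma adjusted p = 0.00697) was 0.21 and not called without DMN rat 2. It was not called in the value table either (0.25, limma adjusted p = 0.316), nor with median scaling, with the processed signal scaled to all probes (0.12) or on the 6 arrays alone, and was 0.60 and called with slide as a fixed block. CIDB rats 1 and 3, which alone set the slide difference in that fit, read 12.86 and 13.16 for miR-21. Its opposite arm, miR-21*, was not called and was detected on none of the 6 arrays, and miR-221 (0.023 ± 0.019) was not called, while miR-222 was detected on no array. miR-31 read 7.96, 7.96 and 8.06 against 7.91, 7.86 and 7.95 and was not called (0.090 ± 0.057, limma adjusted p = 0.309).

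The miR-29 family, which targets collagens, gave no call among 5 tested, against 23.5% called of all tested. miR-29b read 9.54, 10.12 and 9.77 in DMN rats and 9.44, 9.38 and 9.67 in controls (0.31 ± 0.13, limma adjusted p = 0.0828), so that DMN rat 1 lay between the controls. It was called higher with the processed signal scaled to detected probes (0.46, limma adjusted p = 0.036) and against the MC rats (0.40, limma adjusted p = 0.0212). In the value table and with slide as a fixed block it was not called (limma adjusted p = 0.0688 and 0.597). miR-29a differed by 0.023 ± 0.08 and miR-29c by -0.094 ± 0.07. Neither red blood cell miRNA was called, and both varied widely between rats: miR-451 read 9.83, 9.04 and 10.10 against 9.63, 9.38 and 10.22, and miR-144 differed by -0.094 ± 0.15.

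The 8 tested epithelial and bile duct miRNAs included 1 called higher, miR-203, against 13.6% higher of all tested. miR-203 was not well above background on any of the 6 arrays, and miR-200b was not called (-0.051 ± 0.09). Of 44 miRNAs of the imprinted Dlk1-Dio3 region on the array 3 were tested and none was called, and miR-487b, the one farthest from 0, was detected on none of the 6 arrays. Of 14 miRNAs of other tissues 4 were tested and none was called, and miR-128, the one farthest from 0, was detected on none of the 6 arrays. The remaining calls were miR-301a, well above background in 1 DMN rat and higher by at least 1.02-fold, and miR-425, miR-500, miR-7a* and miR-331, for which no array was well above background. Of 13 other settings, miR-425 was called in 7, miR-500 in 4, miR-331 in 3 and miR-7a* in 1, and of the 6 fits without a rat in 4, 2, 4 and 1.

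**Figure D4:**
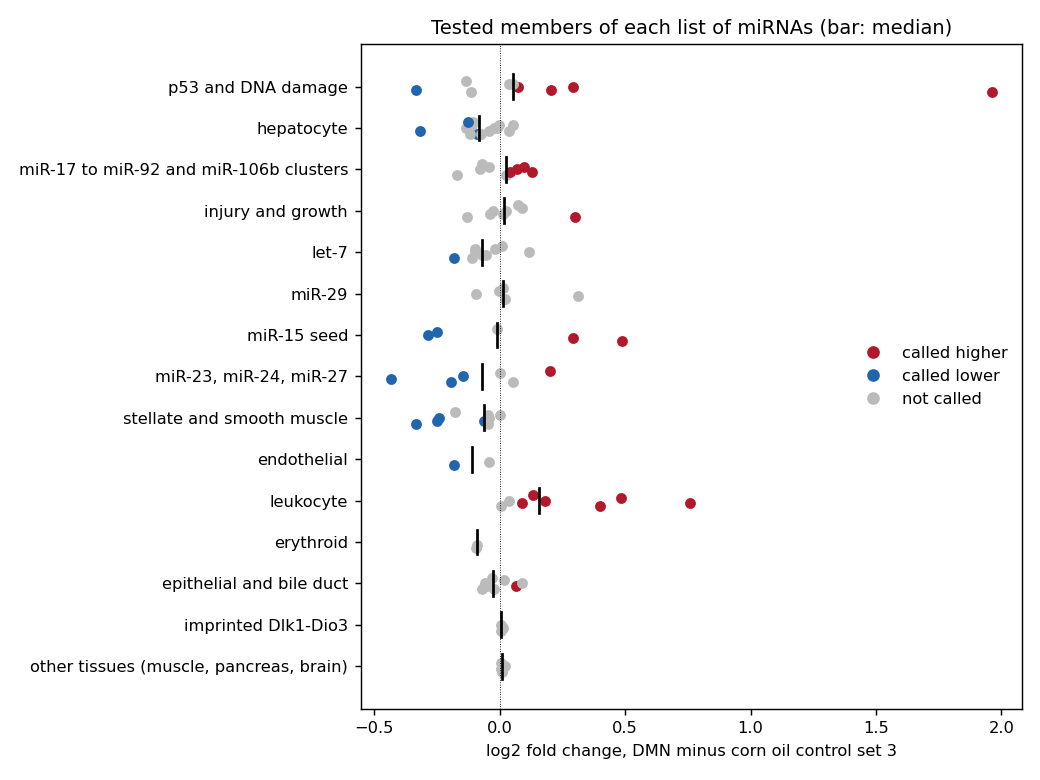
Log2 fold change in DMN rats (x axis, DMN minus CO control set 3) of every tested member of 15 lists of miRNAs, one row per list, coloured by the call, with the median of the list as a bar. Members called lie to the right in the leukocyte row, to the left in the stellate and smooth muscle row and on both sides in the miR-15 seed row.

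The authors' value table gave the same directions on a wider scale. It lists 135 miRNAs, among them 37 of the 38 called here (miR-34c is not listed), and all 37 had the same sign there. The table comes from the same arrays on which these miRNAs were called, so the shared signs are no separate support. The change was larger in the table for 35 of the 37. miR-34a stood at 9.58, 9.29 and 9.62 in DMN rats and 6.26, 5.69 and 5.25 in controls of the table, a log2 difference of 3.76 ± 0.29, or 13.6-fold. miR-223 differed by 1.31 ± 0.20 and miR-142-3p by 1.20 ± 0.22. Fitted in the same way, the table gave 19 higher and 10 lower of 135, with 26 of the 37 calls kept. Within each of the 6 arrays the table rose with a slope of 0.987 to 1.02 on the log2 background-subtracted signal and of 1.6 to 1.64 on the brightness used here, over the 71 miRNAs detected on all arrays. Its columns had medians of 4.68, 4.77 and 4.78 for the DMN rats and 4.77, 4.98 and 4.49 for the controls, and how they were centred is not known. The methods name no background correction for it, whereas these slopes follow the background-subtracted signal.

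**Figure D5:**
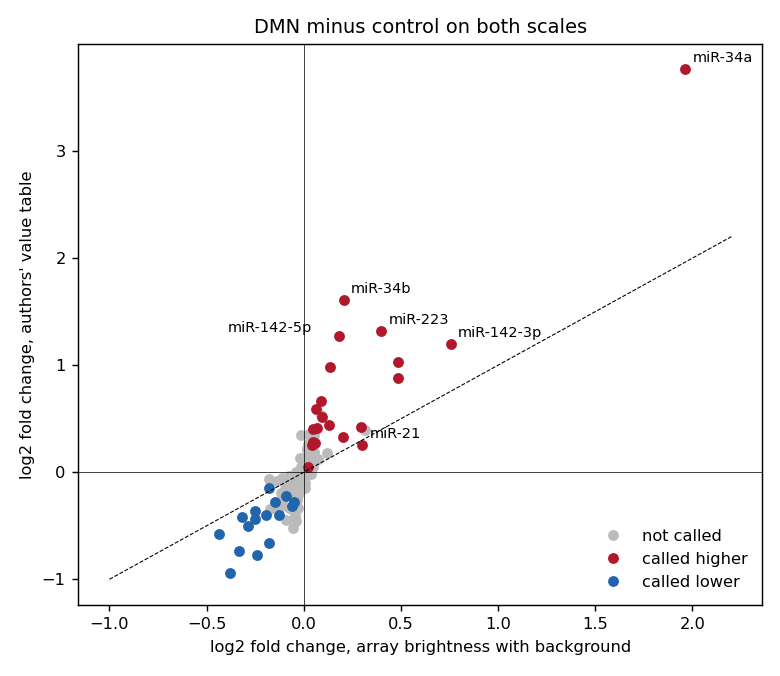
Log2 fold change in DMN rats in the authors' value table (y axis) against that from array brightness with background (x axis) for 135 miRNAs, coloured by the call, with the line of equal values dashed. Of the 37 called miRNAs 35 lie farther from 0 in the table than in the brightness values, and miR-21 is among the others.

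DMN was then set against CIDB, the other genotoxic carcinogen with the same vehicle, duration and controls but another dose. The 3 CIDB rats were on 3 slides, one of them with the DMN rats and one, scanned on another day, at a median brightness of 78 units. With slide as a fixed block, the comparison of DMN with CIDB rests on CIDB rat 1 alone, the one on the slide of the DMN rats. limma called 53 of 162 miRNAs (32.7%), 22 higher (13.6%) and 31 lower (19.1%) in DMN than in CIDB rats, with 66 at an unadjusted p under 0.05. Median scaling and the processed signal scaled to all probes shifted the median of all miRNAs in this comparison by -0.15 and -0.22, against -0.010 here, and called 2 higher and 104 lower and 14 higher and 54 lower. Fitted in the same way, the value table gave 16 higher and 35 lower of 135, and 48 of the 49 calls it lists kept their sign. On its wider scale miR-34a differed by -1.89, miR-142-3p by 1.59, miR-223 by 2.01 and miR-200b by -1.33, but miR-192 by 0.48.

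miR-34a was lower in DMN than in CIDB rats, which read 11.27, 11.23 and 11.46. The difference was -1.47 ± 0.12 (limma adjusted p = 2.28e-13), so that CIDB rats were 2.78-fold above DMN rats, and from the shared controls the changes were 1.96 in DMN and 3.44 in CIDB. miR-34b went the other way, at 7.557, 7.556 and 7.568 in CIDB rats below each DMN rat (0.13 ± 0.02 in brightness, limma adjusted p = 1.01e-06). Each group had 1 rat well above background, so that this difference is not a fold of its own signal.

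Of 8 tested members of the leukocyte list 6 were called higher in DMN than in CIDB rats and none lower, against 13.6% higher of all tested, the others being miR-150 and miR-181a. miR-142-3p read 8.17, 8.30 and 8.12 in CIDB rats, below all DMN rats (0.92 ± 0.12, limma adjusted p = 1.73e-08), and miR-146a 8.04, 8.05 and 8.25 (0.62 ± 0.08, limma adjusted p = 1.77e-08). miR-223 read 7.74, 7.71 and 7.72 in CIDB rats, below all controls as well, and the compounds differed by 0.55 ± 0.05 (limma adjusted p = 3.25e-12). With slide as a fixed block, where CIDB rat 1 alone is compared, the differences of miR-142-3p, miR-146a and miR-223 were 0.94, 0.69 and 0.53. The summed leukocyte markers of the CIDB rats were 0.395, 0.461 and 0.331, in the range of the controls except for rat 3, which was lower.

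miR-15b was higher in DMN than in CIDB rats by 0.56 ± 0.07 (limma adjusted p = 7.89e-09) and the hepatocyte miR-192 by 0.53 ± 0.07 (limma adjusted p = 2.38e-08), but with median scaling these were -0.095 and -0.79. miR-192 read 10.46, 10.45 and 10.27 in CIDB rats against 11.06, 10.80 and 10.92 in DMN rats, and only in CIDB rats was it below all controls, at 10.94, 10.95 and 10.79. Of 14 tested members of the hepatocyte list, 3 were called higher and 3 lower in DMN than in CIDB rats. Of all tested miRNAs, 13.6% were higher and 19.1% lower.

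Lower in DMN than in CIDB rats were miR-10a-5p by -0.39 ± 0.06 (limma adjusted p = 3.89e-07), miR-200b by -0.36 ± 0.09 (limma adjusted p = 0.00179), miR-29c by -0.32 ± 0.07 (limma adjusted p = 2.80e-04) and miR-143 by -0.28 ± 0.06 (limma adjusted p = 1.07e-04). For miR-10a-5p and miR-143 the CIDB rats lay near the controls, with changes of 0.0084 and -0.059 from them. For miR-200b, an epithelial miRNA, the CIDB rats at 8.29, 8.11 and 8.09 lay above the controls at 7.80, 7.78 and 8.00, and for miR-29c they lay at 9.77, 9.71 and 9.74 against 9.54, 9.50 and 9.50. The stellate and smooth muscle list had 4 of 9 tested members lower in DMN than in CIDB rats and none higher, against 19.1% lower of all tested, namely miR-143, miR-199a-5p, miR-10b and miR-152. With slide as a fixed block the calls of miR-199a-5p and miR-152 were lost, and miR-10b was well above background in no DMN rat and 1 CIDB rat. The epithelial and bile duct list had 4 of 8 lower and 1 higher, against 19.1% lower and 13.6% higher of all tested. Of its 4 lower members miR-200c was not called with slide as a fixed block. For miR-26a, miR-99a, miR-195, miR-497 and miR-27a the compounds differed by 0.030 ± 0.07, 0.023 ± 0.09, -0.068 ± 0.11, -0.075 ± 0.09 and 0.078 ± 0.07, none of them called.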

How the data were processed

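The deposited scanner files hold the intensity of each spot as read by Agilent Feature Extraction 10.7, as mean brightness, local background and background-subtracted signal, without normalization between arrays. The authors' value table holds normalized log2 values, made per the methods by RMA without background correction, although their spread follows the background-subtracted signal. Controls and flagged outlier spots (2.87%) were dropped, and the remaining spots were quantile normalized, averaged per probe, taken to log2 and summarised per miRNA by median polish. The 162 of 350 miRNAs detected on at least 1 array were tested with limma 3.58.1 (R 4.3.3) over 63 arrays in 21 groups with Benjamini-Hochberg adjustment. The fit was tested on simulated data. Groups follow the sample labels. No 2 of the 6 DMN and control arrays were identical. For 15 arrays outside the groups used here the value columns followed arrays of another group, always as whole groups of 3, which leaves the contrasts used here as they are. Of the arrays of DMN, CO control set 3, CIDB and MC control set 6, 12 of 12 matched their own column.

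Named were, in each direction, the 12 largest changes among called miRNAs without overlap of the rats, a list of liver, p53, blood, mesenchymal and cluster miRNAs, 5 miRNAs per direction for DMN against CIDB, both arms of a hairpin with a call, and the largest change in each list. miR-16, miR-27b, miR-23a, miR-322, miR-342-3p, miR-150, miR-18a and the remaining calls were named after their values were seen. Members, lists and tests were chosen with earlier results of these data known. The bound for miRNAs not well above background takes, per array, the higher of the miRNA's own brightness and the lowest brightness of a miRNA that is well above background. Alternatives were other scalings, background correction with an offset of 50, filters, slide or scan day as a block, other controls, the groups compared alone, and leaving out each rat. mRNA and protein data were not used here.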

Additional observations from a re-analysis of the deposited data

Results flagged for a closer look

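miR-223 was called in both compounds against the same controls but in opposite directions, higher in DMN rats by 0.40 and lower in CIDB rats by 0.15 on the log2 scale. The compounds differed by 0.55 ± 0.05 (limma adjusted p = 3.25e-12), with all 3 DMN rats above and all 3 CIDB rats below the controls. On the wider scale of the value table this difference was 2.01. It is a miRNA of myeloid cells. The DMN mean of the summed leukocyte markers, a sum that includes miR-223 itself, was 2.66 times the control mean. The part of these cells in the difference was not tested. Groups of 3 rats are too small for a test of single outlying rats.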

How the results depend on the processing

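Of the 38 miRNAs called in DMN rats, 37 kept their direction under all alternatives that gave a value, and miR-7a* was at the floor of the processed signal in both groups. The count of 22 higher became 12 with the processed signal scaled to all probes, 4 with median scaling, 6 on the 6 arrays alone with or without renewed quantile normalization, 14 with detection required on every array of a group and 9 with slide as a fixed block. The count of 16 lower became 10 in the value table, 7 with the processed signal scaled to detected probes, 0 with median scaling, 8 on the 6 arrays alone by either normalization, 10 without a detection filter, 2 with slide as a fixed and 7 as a random block. Median scaling sets the median spot, which lies at the background, equal on all arrays. Leaving out a rat gave 14 to 25 higher and 8 to 14 lower.

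For DMN against CIDB the 22 higher and 31 lower became 14 and 54 with the processed signal scaled to all probes, 2 and 104 with median scaling, and 10 and 15 on the arrays of these groups alone by either normalization. The count of lower also became 48 with the processed signal scaled to detected probes, 12 with slide as a fixed block and 13 with the same-slide CIDB rat as the only one. Leaving out a rat gave 17 to 23 higher and 26 to 33 lower. With the replicate number as a block 7 were higher and 10 lower. Rats of equal number correlated in their deviations with r of 0.19, 0.25 and -0.11, so the number does not pair them. No paired analysis was possible for DMN against CO control set 3 because these groups share no replicate number.

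In DMN rats against control, changes of sign occurred in miRNAs without a call in that comparison. For miR-192 the difference was -0.017 in the value table, -0.27 with the processed signal scaled to all probes, -0.021 with median scaling, -0.16 and -0.0014 with slide as a fixed and a random block, -0.00011 against the MC rats, -0.018 without control rat 6 and -0.033 to 0.098 over all fits that left out a rat. For miR-7a it was 0.12 with the processed signal scaled to detected probes, 0.0012 with normexp, 0.0057 with median scaling, 0.0072 with slide as a fixed block, 0.0031 against all corn oil controls and -0.015 to 0.015 when a rat was left out, with 0.0042 without DMN rat 1. For miR-29a it was -0.29 with the processed signal scaled to all probes, -0.038 with median scaling, -0.010 against all corn oil controls and -0.020 to 0.052 when a rat was left out, with -0.012 without DMN rat 2. For miR-200b it was 0.093 with the processed signal scaled to detected probes, 0.037 against all corn oil controls, 0.054 against the MC rats and -0.091 to 0.019 when a rat was left out. When a rat was left out miR-451 gave -0.31 to 0.22, with 0.15 without control rat 6, and miR-144 -0.19 to 0.0085. With slide as a fixed block miR-322 gave 0.18, miR-221 -0.038, miR-126* 0.061, miR-92a 0.019, miR-487b -0.0072 and miR-128 -0.010. miR-221 gave -0.080 with the processed signal scaled to all probes, miR-99a* 0.016 with that scaled to detected probes and miR-487b -0.00023 against the MC rats. Between DMN and CIDB, miR-15b gave -0.095 and miR-192 -0.79 with median scaling, and miR-192 -0.014 with the processed signal scaled to all probes. Apart from the construction of median scaling and of smaller sets of arrays, the cause was not tested.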

Other observations

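Further miRNAs differed between DMN and CIDB rats, chosen here after their values were seen. The epithelial miR-200a was lower in DMN than in CIDB rats by -0.22 ± 0.05 (limma adjusted p = 4.61e-04), well above background in 1 DMN rat and in all 3 CIDB rats. miR-200c and miR-429 were called lower as well (limma adjusted p = 0.00342 and 6.50e-05), well above background in all 3 CIDB rats and in no DMN rat, and no fold is given for them. The CIDB rats were on 3 slides, and with slide as a fixed block CIDB rat 1 alone is compared. In that fit the brightness differences of miR-200a, miR-200c and miR-429 were -0.25, -0.21 and -0.18, and that of miR-200c was not called. From the shared controls, miR-200a changed by -0.070 in DMN and by 0.15 in CIDB rats, of which only the second was called. It was well above background in all 3 controls.

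miR-193, abundant in liver, was higher in DMN than in CIDB rats by 0.44 ± 0.10 (limma adjusted p = 7.79e-04), at 8.83, 8.73 and 8.73 in DMN rats. The difference became 0.37 with slide as a fixed block, against CIDB rat 1 alone, and was not called. It was not called in DMN rats against the controls (0.073 ± 0.10). miR-322 of the miR-15 seed was lower in DMN than in CIDB rats by -0.16 ± 0.04 (limma adjusted p = 4.61e-04), while miR-15b and miR-16 were higher in the same comparison. The difference of miR-322 became -0.080 with slide as a fixed block and was not called, against 0.50 for miR-15b and 0.41 for miR-16 in that fit.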
